A study of Mus musculus with 6 samples.

Results

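Messenger RNA of 10 immune cell genes was followed in newborn mouse epidermis that lacks Znf750 and in control epidermis. Of the 10, 5 are expressed by nearly all white blood cells or by broad classes of them (Ptprc, Cd52, Laptm5, Tyrobp and Fcer1g, the pan-leukocyte genes below), and 5 mark T cells (Cd3d, Cd3e, Cd3g, Thy1 and Trdc). They were taken by gene symbol from the 55487 Ensembl genes listed in every library, and all 10 were found. The 3 Znf750 cKO libraries and the 3 Control libraries are epidermal cells of back skin at postnatal day 0. The skins were treated with dispase, the epidermis was lifted off and broken up with trypsin, and the cells were not sorted. Znf750 (mouse symbol Zfp750) is the gene of a keratinocyte transcription factor with a zinc finger. The genotype of the controls, the Cre line behind the label cKO, the strain, the sex and any pooling of pups are not stated in the labels. It is likewise not stated that the 3 samples of a group are separate animals, so p-values measure the spread between these samples.

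Mouse epidermis is built mainly of keratinocytes and also houses immune cells. Before birth it is seeded by a wave of T cells with a gamma delta receptor, the dendritic epidermal T cells, and by myeloid precursors of Langerhans cells, the antigen-presenting cells of the epidermis. A T cell receptor is displayed together with CD3 chains, which pass its signal on through short tyrosine motifs. Myeloid and natural killer cells use related adaptors with the same kind of motif, Tyrobp (DAP12) and Fcer1g (the Fc receptor gamma chain), to pass on signals from receptors that have no signalling tail of their own. Because the samples are bulk RNA of a cell suspension, fewer cells of a type and less RNA per cell cannot be told apart in any of the results that follow.

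Values are FPKM, which relates fragments to the length of the transcript and to all mapped fragments of a library, so levels of different genes can be set side by side per length. The estimated depth was 23.0 to 35.4 M reads (megareads) in the Znf750 cKO libraries and 21.4 to 28.4 M reads in the Control libraries. Zfp750, the targeted gene, was at 0.99, 0.83 and 1.47 FPKM in Znf750 cKO replicates 1, 2 and 3, against 44.8, 32.0 and 34.9 FPKM in Control. Of 13688 genes that reached 1 FPKM in 3 or more libraries, 4.22% changed at a limma adjusted p under 0.05, and "rose" and "fell" are used below for such genes. Znf750 cKO replicate 3 correlated least with its own group, at a median r of 0.952 over tested genes, against 0.963 to 0.970 for the other 5 libraries. The keratinocyte gene Krt14 stood at 6799 ± 677 FPKM in Znf750 cKO and 5268 ± 303 FPKM in Control (SD, n = 3 each), which gives the scale of the epidermal background.

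All 5 pan-leukocyte genes fell in Znf750 cKO epidermis, to between 12.8% and 19.1% of the Control mean, and in each of them every Znf750 cKO library lay below every Control library. The background is that 3.1% of tested genes fell and that the groups lay apart in this way in 19.7% of them. All 5 passed the filter on low values. Of the 5 T cell genes, Cd3g and Thy1 passed the filter and neither fell, while Cd3d, Cd3e and Trdc lay under it and were not part of that test. The means of the 5 in Znf750 cKO were 49.0% to 81.0% of the Control means, and the groups lay apart in Cd3g alone.

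The sequence before the gene is shown for a pan-leukocyte gene that fell and for a T cell gene that did not pass. RefSeq promoter windows on GRCm38.p6, each the 250 bases before the RefSeq start, matched 6 of the 10 members, in 7 windows. RefSeq and GENCODE M21 place some starts differently, and the windows of Ptprc, Laptm5, Fcer1g and Cd3e reach into the GENCODE gene. The bases below lie outside it and are written 5′ to 3′ on the strand of the gene, all in lower case because no searched motif matches in them. They are 234 bases of Fcer1g on the minus strand at chr1:171234366-171234599 and 250 bases of Cd3g on the minus strand at chr9:44980432-44980681.
Fcer1g: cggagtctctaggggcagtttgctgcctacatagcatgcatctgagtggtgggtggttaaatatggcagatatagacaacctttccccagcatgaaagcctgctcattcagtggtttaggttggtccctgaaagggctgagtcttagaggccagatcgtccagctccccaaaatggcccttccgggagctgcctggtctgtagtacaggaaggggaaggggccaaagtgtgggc
Cd3g: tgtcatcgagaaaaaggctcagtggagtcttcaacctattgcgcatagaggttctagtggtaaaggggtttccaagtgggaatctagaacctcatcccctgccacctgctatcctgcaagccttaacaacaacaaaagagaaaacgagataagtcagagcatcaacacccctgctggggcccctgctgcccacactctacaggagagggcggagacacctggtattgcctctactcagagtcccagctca
Of 32851 promoter windows, 10.61% held GAGGAAG, a core bound by the myeloid factor PU.1, on either strand. Among the 7 member windows it was in that of Laptm5 alone, reversed, starting 39 bases before the RefSeq start. That match lies within the 191 bases of the window that are inside the GENCODE gene. TGTGGT, a core bound by RUNX factors, was in 14.05% of all windows and in none of the 7. A match in letters is a description and not a measured binding site, and a window without one says nothing of the factor.

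**Figure D1:**
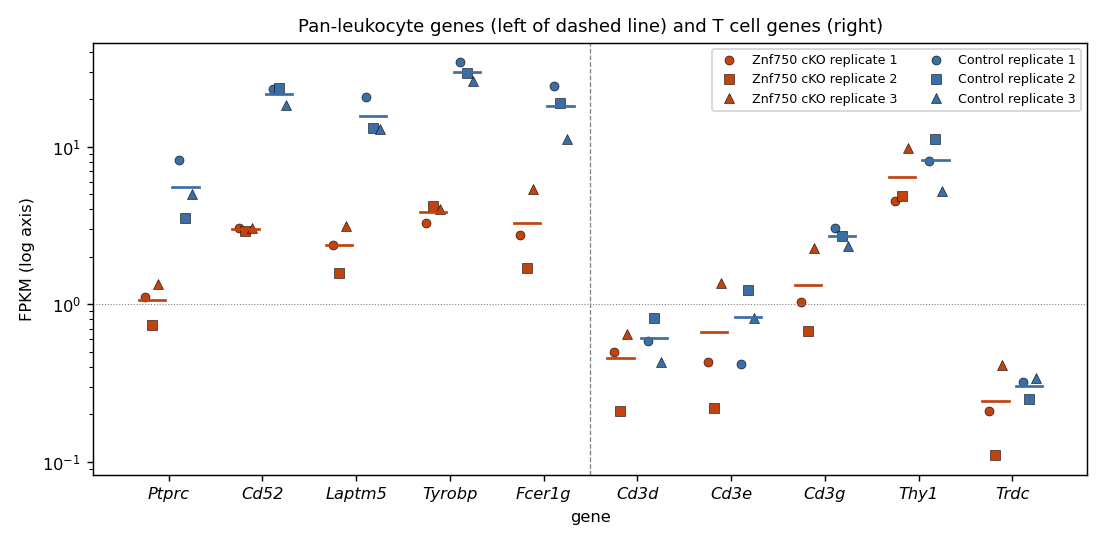
FPKM on a log axis of the 10 genes in each library, with Znf750 cKO left of Control for every gene, a horizontal bar at the group mean and a dotted line at 1 FPKM. The groups lie apart in all 5 pan-leukocyte genes, where Znf750 cKO means run from 1.06 to 3.86 FPKM and Control means from 5.57 to 30.1 FPKM, and they overlap in each T cell gene but Cd3g.

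Tyrobp (ENSMUSG00000030579, chromosome 7, 30413760 to 30417585, plus strand, GRCm38) encodes the adaptor DAP12 of myeloid and natural killer cell receptors. It was the most abundant of the 10 genes in Control. Its level was 3.30, 4.22 and 4.05 FPKM in Znf750 cKO replicates 1, 2 and 3, against 34.4, 29.5 and 26.3 FPKM in Control replicates 1, 2 and 3. The lowest Control library was thus far above the highest Znf750 cKO library. The means were 3.86 ± 0.49 FPKM in Znf750 cKO and 30.1 ± 4.05 FPKM in Control (SD, n = 3 each), a 7.79-fold difference. On the log2(FPKM + 1) scale it fell by 2.67 (SE 0.14, limma adjusted p = 0.00021), which ranked 9 among the lowest changes of the 13688 tested genes.

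Fcer1g (ENSMUSG00000058715, chromosome 1, 171229572 to 171234365, minus strand) encodes the sister adaptor of Fc receptors and of several C-type lectins. Its level was 2.75, 1.71 and 5.36 FPKM in Znf750 cKO, against 24.4, 19.1 and 11.1 FPKM in Control. The groups did not overlap, but of the pan-leukocyte genes this one spread most within Znf750 cKO, where replicate 3 was highest, and within Control replicate 3 was lowest. It fell by 2.19 on the log2(FPKM + 1) scale (SE 0.40, limma adjusted p = 0.043). With the replicate number as a block the adjusted p was 0.090, and the call also ended without Control replicate 1 or 2 or Znf750 cKO replicate 1 or 2, at adjusted p of 0.086 to 0.16.

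Ptprc (ENSMUSG00000026395, chromosome 1, 138062861 to 138175708, minus strand) encodes CD45, the membrane tyrosine phosphatase carried by all white blood cells, T cells included. Its level was 1.11, 0.74 and 1.34 FPKM in Znf750 cKO, against 8.21, 3.53 and 4.98 FPKM in Control. Control replicate 1 was the highest library and the groups did not overlap. Ptprc fell by 1.62 on the log2(FPKM + 1) scale (SE 0.27, limma adjusted p = 0.020), with means of 1.06 ± 0.30 FPKM in Znf750 cKO and 5.57 ± 2.40 FPKM in Control (SD, n = 3 each), 5.24-fold apart. Its call ended without Control replicate 3 (adjusted p = 0.057), without Znf750 cKO replicate 1 (0.085) or 2 (0.056), and with replicate 3 left out of each group (0.052).

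Laptm5 (ENSMUSG00000028581, chromosome 4, 130913125 to 130936141, plus strand) encodes a lysosomal membrane protein of blood cells that lowers surface levels of antigen receptors. It was at 2.38, 1.59 and 3.14 FPKM in Znf750 cKO, against 20.8, 13.1 and 12.9 FPKM in Control. Here too Control replicate 1 was highest and no Znf750 cKO library came near the Control range. The fall was 6.58-fold in means and -2.29 on the log2(FPKM + 1) scale (SE 0.23, limma adjusted p = 0.0039).

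Cd52 (ENSMUSG00000000682, chromosome 4, 134082448 to 134095082, minus strand) encodes a short glycoprotein anchored to the lymphocyte and macrophage surface. It was at 3.07, 2.91 and 3.04 FPKM in Znf750 cKO, against 23.4, 23.7 and 18.3 FPKM in Control, so that the Znf750 cKO libraries were nearly equal and all under the Control range. The difference was 7.24-fold in means and -2.50 on the log2(FPKM + 1) scale (SE 0.13, limma adjusted p = 0.00021). Cd52 shares exon sequence with Crybg2 on the opposite strand, and no source here says whether reads were assigned by strand. Crybg2 stood at 61.5, 60.9 and 42.2 FPKM in Znf750 cKO and at 60.8, 73.0 and 78.2 FPKM in Control (limma adjusted p = 0.25), and its share in the Cd52 values was not tested.

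**Figure D2:**
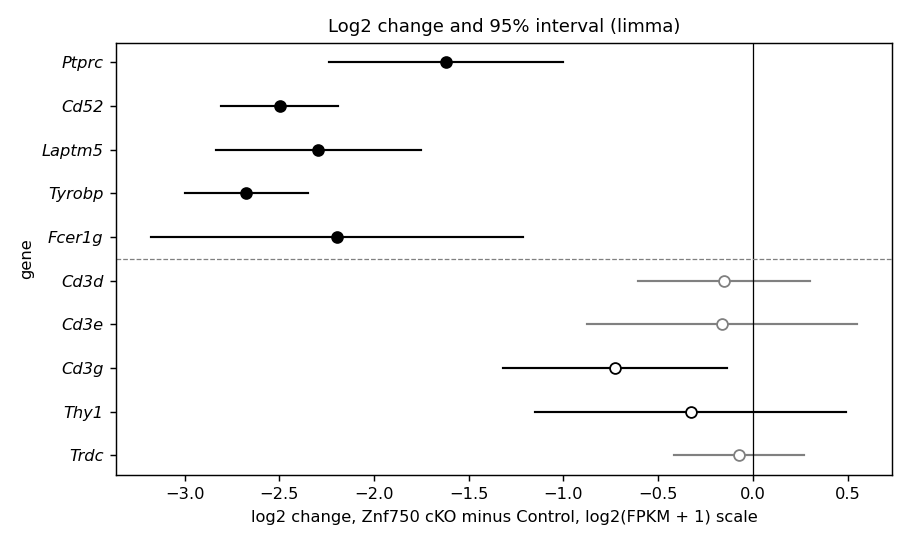
Log2 change (Znf750 cKO minus Control, on the log2(FPKM + 1) scale) of each gene with its 95% limma interval. Filled points passed at an adjusted p under 0.05, and open black points were tested and did not pass. Grey points lie under the filter on low values and come from the fit without that filter. The 5 pan-leukocyte genes run from -2.67 to -1.62 and the T cell genes from -0.73 to -0.07. The Control means of Cd3d, Cd3e and Trdc were 0.61, 0.83 and 0.30 FPKM. From there even a fall to 0 FPKM could not reach the pan-leukocyte range on this scale.

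The CD3 chains lie side by side on chromosome 9 of GRCm38 and were low in all libraries. Cd3g (ENSMUSG00000002033, 44969572 to 44980431, minus strand), the gamma chain, was the most abundant of them. It was at 1.03, 0.68 and 2.27 FPKM in Znf750 cKO, against 3.07, 2.70 and 2.36 FPKM in Control. The groups did not overlap, though Znf750 cKO replicate 3 came within 0.1 FPKM of the lowest Control library. Cd3g had a log2 change of -0.73 (95% interval -1.32 to -0.13) with an unadjusted limma p of 0.022 and an adjusted p of 0.16, so it did not pass. Without Znf750 cKO replicate 3 the log2 change was -1.002 and the adjusted p 0.047.

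Cd3d (ENSMUSG00000032094, 44981786 to 44987339, plus strand), the delta chain, was at 0.50, 0.21 and 0.65 FPKM in Znf750 cKO and at 0.58, 0.82 and 0.43 FPKM in Control. Cd3e (ENSMUSG00000032093, 44998740 to 45009627, minus strand), the epsilon chain, was at 0.43, 0.22 and 1.36 FPKM in Znf750 cKO and at 0.42, 1.24 and 0.82 FPKM in Control. In both genes the groups overlapped, and the highest Cd3e value of all was in Znf750 cKO replicate 3. The exact two-sided permutation test over the 6 libraries gave p = 0.5 for Cd3d and p = 0.8 for Cd3e, where the smallest p that 3 against 3 can give is 0.1. Cd3e shares exon sequence with the antisense gene Gm48719, which was listed at 0 in all 6 libraries.

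Trdc (ENSMUSG00000104876, chromosome 14, 54142851 to 54148868, plus strand) encodes the constant region of the T cell receptor delta chain, the part that gamma delta T cells such as dendritic epidermal T cells share. It was at 0.21, 0.11 and 0.41 FPKM in Znf750 cKO and at 0.32, 0.25 and 0.34 FPKM in Control. The highest and the lowest library both belonged to Znf750 cKO, so its range enclosed that of Control (exact permutation p = 0.6). With its single annotated transcript of 3865 bases and the estimated depths, these levels stand for about 28, 11 and 36 reads in Znf750 cKO and 34, 20 and 30 reads in Control.

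Thy1 (ENSMUSG00000032011, chromosome 9, 44043384 to 44048579, plus strand) encodes CD90, a surface protein of mouse T cells that fibroblasts and nerve cells also carry. It was at 4.52, 4.88 and 9.84 FPKM in Znf750 cKO and at 8.14, 11.2 and 5.26 FPKM in Control. The groups overlapped, with Znf750 cKO replicate 3 above 2 of the 3 Control libraries. Its log2 change was -0.33 (95% interval -1.15 to 0.49, limma adjusted p = 0.65). The list of fibroblast markers summed to 114 to 171 FPKM in Znf750 cKO and 133 to 159 FPKM in Control, nearly all of it Dcn, a proteoglycan gene, and 0 of its 3 tested genes passed. The share of fibroblasts in the Thy1 level was not tested.

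In Znf750 cKO the T cell genes moved with the library. Replicate 3 was the highest Znf750 cKO library for each of the 5, and replicate 2 was the lowest for each but Thy1, where replicate 1 was. This order was not particular to T cell genes. Ptprc, Laptm5 and Fcer1g were also highest in replicate 3 and lowest in replicate 2, while Cd52 and Tyrobp were not. The number of genes listed above 0 FPKM had the same order, at 27256, 24045 and 29087 in Znf750 cKO replicates 1, 2 and 3. Its part in the T cell levels was not tested. The levels of the 5 T cell genes summed to 6.10 to 14.5 FPKM in Znf750 cKO and 9.21 to 16.2 FPKM in Control, overlapping ranges. The 5 pan-leukocyte genes summed to 11.2 to 16.9 FPKM in Znf750 cKO and 73.6 to 111 FPKM in Control, far apart. On the scale of log2(FPKM + 0.1), which compresses low genes less and was chosen after seeing the data, the log2 change without a filter was -0.42 for Cd3d (95% interval -1.51 to 0.67), -0.46 for Cd3e (-1.88 to 0.97) and -0.32 for Trdc (-1.47 to 0.83). For Cd3g it was -1.13 (-2.05 to -0.20), an interval that leaves out 0, with a limma adjusted p of 0.34. On that scale Ptprc stood at -2.24 (-3.04 to -1.43). The intervals of Cd3d, Cd3e and Trdc include 0, and their lower ends lie above the Ptprc value but within the Ptprc interval.

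The ratio of each T cell gene to Ptprc within a library is given as a description. Because Ptprc fell with its groups apart, a higher ratio in Znf750 cKO is what any gene that changed less than Ptprc shows, and it does not separate T cell genes from other such genes. The ratio of Cd3g to Ptprc was 0.928, 0.919 and 1.69 in Znf750 cKO, against 0.374, 0.765 and 0.474 in Control. All 3 Znf750 cKO ratios were above all 3 Control ratios, a difference of 1.14 on the log2 scale. The same held for Trdc, Thy1 and Cd3d, whose ratios to Ptprc differed by 1.84, 1.96 and 1.82 on the log2 scale. The ratio of Cd3e to Ptprc was 0.387, 0.297 and 1.01 in Znf750 cKO and 0.0512, 0.351 and 0.165 in Control, overlapping. All 5 ratios share Ptprc as their divisor and are not independent of each other.

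**Figure D3:**
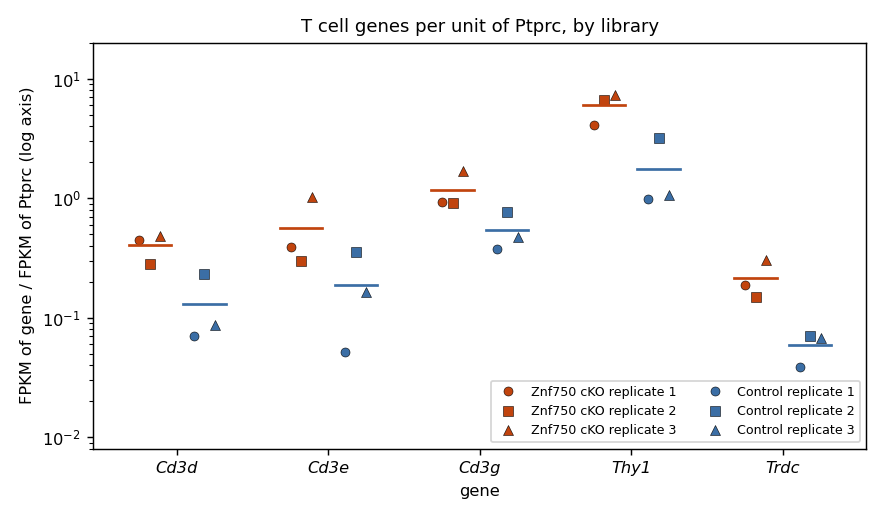
FPKM of each T cell gene divided by the FPKM of Ptprc in the same library, on a log axis, with Znf750 cKO left of Control and bars at arithmetic group means. Cd3d, Cd3g, Thy1 and Trdc have all Znf750 cKO ratios above all Control ratios, and Cd3e overlaps.

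A wider list of 25 genes of white blood cells in general was described next, all found in the files, of which 18 passed the filter. Of these, 11 fell, 0 rose and 7 did not pass, with a median log2 change of -1.12 against -0.08 over all tested genes. Coro1a, an actin regulator of leukocytes, was at 3.05 ± 0.46 FPKM in Znf750 cKO and 17.2 ± 2.15 FPKM in Control (SD, n = 3 each; log2 change -2.17, limma adjusted p = 0.00047). Lsp1, a leukocyte F-actin binding protein, was at 2.0 ± 0.76 FPKM in Znf750 cKO and 15.7 ± 5.58 FPKM in Control (log2 change -2.46, adjusted p = 0.0057). Spi1, which encodes PU.1, the transcription factor of myeloid and B cell fate, was at 0.73 ± 0.27 FPKM in Znf750 cKO and 4.38 ± 0.93 FPKM in Control (log2 change -1.64, adjusted p = 0.0066). Arhgdib, the most abundant of the list, stood at 48.0 ± 0.29 FPKM in Znf750 cKO and 61.2 ± 6.92 FPKM in Control and did not pass (adjusted p = 0.12). Leaving out Control replicate 1 or 2 brought this number to 7, and leaving out Znf750 cKO replicate 1 brought it to 4.

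Of 40 further T cell names, 36 were found, and the 4 others are alternative spellings of receptor gamma genes. Only 8 of the 36 passed the filter, and 0 fell, 0 rose and 8 did not pass, with a median log2 change of -0.10. Of all tested genes 3.1% fell, so a count of 0 among 8 says little. An unadjusted limma p under 0.05 was reached by 0 of the 8, against 21.3% of all tested genes. The list includes the kinase Lck at 1.98 ± 0.48 FPKM in Znf750 cKO and 2.41 ± 0.43 FPKM in Control (SD, n = 3 each; limma adjusted p = 0.60), and the receptor gamma constant gene Tcrg-C1 at 1.203 ± 0.31 FPKM in Znf750 cKO and 1.917 ± 0.58 FPKM in Control (adjusted p = 0.33). The most abundant, Gata3, stood at 53.3 ± 3.19 FPKM in Znf750 cKO and 54.0 ± 4.18 FPKM in Control. Gata3, Tcf7 and Bcl11b are also expressed by keratinocytes or hair follicles, so their levels are no measure of T cells. They are nonetheless among the 8 tested and part of the median and the counts above. The other tested genes, Lck, Cd5, Trbc2, Tcrg-C1 and Ctsw, had Znf750 cKO means at 82.3%, 96.6%, 91.9%, 62.8% and 61.2% of Control. Trbc2 had means of 12.0 FPKM in Znf750 cKO and 13.1 FPKM in Control, far above Trac (0.17 and 0.31 FPKM) and Trbc1 (0.91 and 0.85 FPKM). Cd5, at 6.24 and 6.46 FPKM, was likewise above each CD3 chain. The share of T cells in the Trbc2 and Cd5 levels was not tested. Of the 36 genes, 25 had a lower mean in Znf750 cKO, and all Znf750 cKO libraries lay below all Control libraries in 3, among them Txk and Il7r, against 10.6% of all genes listed above 0. Of the named genes, all but Gata3 were chosen after their values were seen.

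Of 19 genes of receptors and kinases that work with Tyrobp and Fcer1g, 9 passed the filter, 7 fell, 0 rose and 2, Syk and Plcg2, did not pass, with a median log2 change of -1.07. Fcgr3, a low-affinity IgG receptor that signals through Fcer1g, was at 0.88, 1.10 and 0.80 FPKM in Znf750 cKO, against 9.87, 4.92 and 4.67 FPKM in Control (log2 change -1.89, limma adjusted p = 0.011). Clec4n, the fungal lectin receptor dectin-2, was at 0.33, 0.15 and 0.98 FPKM in Znf750 cKO, against 3.90, 3.90 and 2.37 FPKM in Control (adjusted p = 0.019). The groups did not overlap in either receptor. Syk, the kinase that binds the phosphorylated adaptors, stood at 0.60 ± 0.18 FPKM in Znf750 cKO and 1.46 ± 0.34 FPKM in Control and did not pass (SD, n = 3 each; limma adjusted p = 0.12). Fcer1a, the mast cell IgE receptor chain, was listed at 0 in all 6 libraries. With the replicate block 3 of these genes fell, and 2, 2, 0 and 4 did without Control replicate 1, Control replicate 2, Znf750 cKO replicate 1 and Znf750 cKO replicate 2.

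Markers of myeloid cells moved together with the pan-leukocyte genes. All 6 tested genes of the list of Langerhans and dendritic cells fell, and the 10 genes of that list summed to 9.01 to 12.5 FPKM in Znf750 cKO and 67.7 to 129 FPKM in Control. Ctss, a protease of antigen processing, was its most abundant gene, at 3.27 ± 0.44 FPKM in Znf750 cKO and 31.1 ± 9.69 FPKM in Control (SD, n = 3 each; limma adjusted p = 0.00065). H2-Aa and Cd74, of the class II antigen presentation pathway, fell with it, at adjusted p = 0.0038 and 0.0044. Cd207, the langerin gene that Langerhans cells of mice switch on after birth, was at 0 to 0.03 FPKM in Znf750 cKO and 0 to 0.06 FPKM in Control. Itgax, Flt3 and Zbtb46 of this list also lay under the filter and were not tested. Their means were 0.36, 0.07 and 0.14 FPKM in Znf750 cKO and 1.17, 0.23 and 0.19 FPKM in Control. The groups lay apart in Itgax and overlapped in Flt3 and Zbtb46. All 7 tested macrophage genes of 8 fell too, among them the complement genes C1qa and C1qb and the lysozyme gene Lyz2, and the list summed to 13.5 to 14.9 FPKM in Znf750 cKO and 74.6 to 120 FPKM in Control. The numbers that fell without Znf750 cKO replicate 1 were 4 of 6 and 4 of 7, and 4 macrophage genes fell without Control replicate 1 or 2. The part of these cells in the pan-leukocyte result was not tested.

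Of the tested blood-borne markers, 1 of 3 erythroid and 1 of 2 platelet genes fell, against 3.1% of all tested genes. The list of 6 erythroid genes summed to 6.92 to 11.1 FPKM in Znf750 cKO and 19.6 to 52.7 FPKM in Control, and 1 of its 3 tested genes fell, the alpha globin Hba-a2, at 3.59 ± 0.46 FPKM in Znf750 cKO and 15.3 ± 4.56 FPKM in Control (SD, n = 3 each; limma adjusted p = 0.0055). The beta globin Hbb-bs did not pass (limma adjusted p = 0.089), but its groups lay apart, with a Znf750 cKO mean at 24.5% of Control. Hba-a1, the other gene tested, overlapped between the groups (limma adjusted p = 0.46). Globin copies are nearly alike, so their separate levels are uncertain. The 4 platelet genes summed to 6.55 to 10.6 FPKM in Znf750 cKO and 9.48 to 11.6 FPKM in Control, overlapping ranges. Most of that sum was Itga2b, at 7.06 ± 2.36 FPKM in Znf750 cKO and 7.33 ± 0.84 FPKM in Control. Of the 2 tested, Itga2b did not pass and the chemokine gene Pf4 fell (limma adjusted p = 0.048). Pf4 was at 1.16 ± 0.44 FPKM in Znf750 cKO and 3.20 ± 0.74 FPKM in Control. Gp9 was listed at 0 throughout. The part of blood in the pan-leukocyte result was not tested. Of the markers of other resident cells that were tested, 0 of 6 melanocyte, 0 of 7 keratinocyte and 0 of 1 endothelial genes passed. Of all tested genes 4.22% did, so a count of 0 in lists this short says little. The endothelial gene tested was Pecam1, while Cdh5, Kdr, Tek and Emcn had means of 0.01 to 0.05 FPKM over both groups. Melanocyte markers, led by Dct, summed to 99.6 to 116 FPKM in Znf750 cKO and 79.7 to 144 FPKM in Control.

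**Figure D4:**
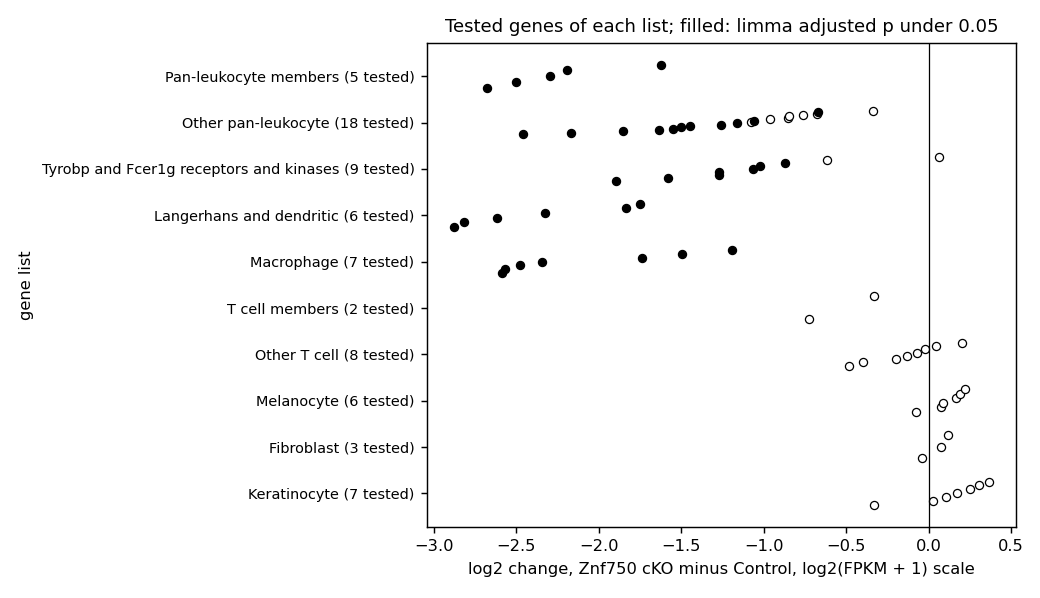
Log2 change (Znf750 cKO minus Control, log2(FPKM + 1) scale) of every tested gene of 10 lists, 1 point per gene, filled where the limma adjusted p is under 0.05. The 2 myeloid lists and the 5 pan-leukocyte genes are filled throughout, while no point of the T cell, melanocyte, fibroblast or keratinocyte lists is.

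The profile of Ptprc over the 6 libraries was compared with that of every other tested gene, by the root mean square distance of log2(FPKM + 1) values centred on the mean of each gene. The nearest were Slfn2 at a distance of 0.14, Plek at 0.17, Slurp1 at 0.17 and Mpeg1 at 0.18. Slfn2 was at 0.58, 0.24 and 0.31 FPKM in Znf750 cKO, against 4.90, 2.35 and 2.93 FPKM in Control, and like Ptprc it was highest in Control replicate 1. The genes nearest to Cd3e were Gm47685, Sertad1, Lhfpl4 and Gm6542, at distances of 0.072 to 0.10. Sertad1 was at 12.5, 11.3 and 22.3 FPKM in Znf750 cKO and at 14.7, 22.5 and 16.1 FPKM in Control, with overlapping groups. Because these genes were picked for their profile over the same 6 libraries, their likeness to Ptprc or Cd3e follows from the choice.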

How the data were processed

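Poly(A) RNA of 6 libraries was read as 100-nucleotide single reads per the labels' protocols, which do not say that strand was kept. Per the file headers, the authors deposited FPKM. The submitters' processing notes name STAR 2.5.2a, RSEM 1.2.28 and DESeq2 along with Trim Galore 0.4.5, cutadapt 1.15 and quality tools, and GRCm38 and mm10, without roles. RSEM estimates abundances and divides reads that fit several genes among them. No source used here gives the annotation release or strand setting.

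Symbols were matched for 55141 of 55487 identifiers, and coordinates are those of GENCODE M21 on GRCm38. Limma 3.58.1 (R 4.3.3, statmod 1.5.0; trend, robust variances) was run on log2(FPKM + 1), for the effect of group, over genes that reached 1 FPKM in 3 or more libraries, with Benjamini-Hochberg adjustment over all 13688. The fit was tested on simulated data. Single genes were compared by exact permutation in Python 3.11.15. Plots used matplotlib 3.10.9.

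The 10 genes and all lists were chosen with earlier results of these data known. Lists cover leukocytes, T cells, partners of Tyrobp and Fcer1g, Langerhans cells, macrophages, mast cells, B cells, neutrophils, natural killer cells, erythroid cells, platelets, melanocytes, fibroblasts, endothelium, keratinocytes and RNA quality. From each list the text takes the most abundant tested gene and up to 3 called genes with the smallest p, and for Ptprc and Cd3e the 4 nearest profiles. Any other gene in the text was picked with its values in view. A gene that the rule names is not reported here.

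Depth was estimated from the steps in FPKM of genes with 1 transcript, of which 69.4% to 76.5% per library fell within 0.1 read of a whole number, against 20% by chance. It entered no test. The search for the steps was set up after the values were seen.

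Deviations from group means of libraries with the same replicate number correlated at 0.31, 0.17 and 0.48 for numbers 1, 2 and 3. Of the 6 pairs with unlike numbers, Znf750 cKO replicate 2 with Control replicate 1 stood at 0.24, higher than number 2 itself, and the other 5 were negative. Each like-numbered value exceeds 0.1, so the numbers were treated as pairs in an alternative fit that takes replicate number as a block. What a number marks is not stated in the labels, so the pairing comes from the data.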

Additional observations from a re-analysis of the deposited data

How the results depend on the processing

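Tyrobp, Cd52 and Laptm5 fell under all 15 alternatives run. Ptprc passed in 10 and Fcer1g in 5 of the 15, each with a negative log2 change throughout (Ptprc -2.24 to -1.35, Fcer1g -2.83 to -1.91). Of the 5 pan-leukocyte genes, 3 to 5 fell with any 1 library left out, 3 with no filter on low values, and 4 with the replicate block, which ended the call of Fcer1g and no other among the members. Of the T cell genes 0 or 1 fell with 1 library left out, the 1 being Cd3g without Znf750 cKO replicate 3, and 0 fell under each other alternative. With 1 library left out and with the replicate block, Cd3d, Cd3e and Trdc stayed under the filter, so there the count covers Cd3g and Thy1 only. Cd3d, Cd3e and Trdc entered the fits with no filter and with a mean FPKM of at least 0.1, and did not pass there. Without 1 library the log2 change ran from -0.44 to 0.033 for Cd3e and from -0.17 to 0.0038 for Trdc, both turning positive without Znf750 cKO replicate 2. Changed genes in all numbered 577, of which 425 fell, and 392 with the replicate block. They numbered 85 with no filter, 287 with a mean FPKM of at least 0.1, 295 with no filter and a pseudocount of 0.1 FPKM together (chosen after seeing the data), and 100 to 356 with 1 library left out. Rescaling by median ratios gave 249 that rose and 263 that fell and moved the median log2 change of tested genes from -0.08 to 0.02, with all 5 pan-leukocyte genes still called. With no filter, 3 of the further leukocyte genes and 0 of the receptors and kinases fell. The cause of these differences was not tested. Levels near 0.2 to 0.8 FPKM, as for Cd3d, Cd3e and Trdc, rest on few reads and limit what can be seen of T cells.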

Other observations

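Other white blood cells left little RNA in these libraries. Markers of mast cells summed to 0.04 to 0.30 FPKM over 6 genes in Znf750 cKO and 0.09 to 0.64 FPKM in Control, with Ms4a2 listed at 0 throughout. Markers of neutrophils summed to 0.07 to 1.08 FPKM over 7 genes in Znf750 cKO and 0.57 to 0.84 FPKM in Control, with Ly6g at 0 throughout. Natural killer cell markers summed to 0 to 0.21 FPKM over 5 genes in Znf750 cKO and 0.10 to 0.21 FPKM in Control. B cell markers summed to 0.56 to 2.40 FPKM over 5 genes in Znf750 cKO and 1.23 to 2.69 FPKM in Control. None of the genes of these 4 lists passed the filter on low values, so none was tested.

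Znf750 cKO replicate 3 was the highest library of its group for the 5 T cell genes and for Ptprc, Laptm5 and Fcer1g. It was also the highest of all 6 for Fos, at 558 FPKM. Fos stood at 269 and 189 FPKM in Znf750 cKO replicates 1 and 2 and at 78.1 to 247 FPKM in Control. Of the 9 genes listed as signs of RNA quality and handling, led by mt-Atp6, 0 passed limma at an adjusted p under 0.05. Of all tested genes 4.22% did. Fos was among the 9 (limma adjusted p = 0.32). In Jun every Znf750 cKO library lay above every Control library, at 74.8, 58.6 and 152.7 FPKM in Znf750 cKO, against 42.6, 54.3 and 49.3 FPKM in Control (limma adjusted p = 0.27). Egr1 was at 69.5, 53.1 and 203.8 FPKM in Znf750 cKO and at 31.1, 41.0 and 71.0 FPKM in Control, overlapping (adjusted p = 0.44). The part of these stress genes in the T cell levels was not tested.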
